A study of Mus musculus with 13 samples.

Results

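The Oas family of antiviral genes was described in murine liver, where 7 of the 11779 genes in the deposited table belong to it. The members were selected by gene symbol (Oas or Oasl followed by a digit) and by the gene type protein-coding, both as the table gives them. The family was chosen from a table whose liver comparison was already known, so the choice of these genes is not itself a result. The 7 genes are Oas1a, Oas1b, Oas1g, Oas2, Oas3, Oasl1 and Oasl2. Of these, 6 had been named in advance and Oas1b was added by the rule. A gene could be a member only if it is among the listed genes, the lowest of which had a mean normalized count of 15.6.

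The table covers Balb/c mice given antisense oligonucleotides (ASOs) that carry N-acetylgalactosamine (GalNAc), a sugar that directs uptake into hepatocytes. The Liver LL35 ASO group is 3 mice that received a mix of 5 ASOs against the long non-coding RNA LL35, and the Liver Luc ASO group is 3 mice that received 1 ASO against firefly luciferase as a control. Livers were taken on day 5 in both groups. The labels give 150 mg/kg for each LL35 ASO, whereas the main text of the study gives that dose for the whole mix. The main text also gives 5 LL35 ASOs for mice, whereas the study's supplementary list of ASOs for mice holds fewer. Neither age nor sex is given in the labels used here, and pieces of whole liver were used, so hepatocytes and all other liver cells contribute to each value. The 7 libraries from AML12 cells, a murine hepatocyte line, were not analysed here.

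The table gives 1 mean per gene over both groups of livers. This mean normalized count is a read count scaled for sequencing depth, averaged over the compared libraries and not divided by gene length. Values of single mice were not analysed here, so no spread between mice can be given. The levels below describe these livers as a set, with no test and no comparison of LL35 ASO with Luc ASO. The depth of each library is unknown too. The means of all listed genes sum to 11299288, and the median gene had a mean normalized count of 235. The LL35 gene, searched for by the symbol 9030622O22Rik, is absent from the listed genes. A mean over both groups could not show the knockdown in any case, so it was not checked here. The study itself measured the knockdown in liver by RT-qPCR.

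Oas proteins are induced by interferons, the cytokines that alert cells to viruses. The active members bind double-stranded RNA and make 2′-5′-linked oligoadenylates, a second messenger that leads to the breakdown of viral and cellular RNA. Interferon-induced transcription runs through a complex of transcription factors that includes STAT2 and IRF9 and binds a DNA element known as the interferon-stimulated response element.

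The promoter sequences are shown because that element is the textbook route by which this family is regulated, and because they are a property that the selection did not use. RefSeq promoter windows (build GRCm38.p6) hold 250 bases before and 50 bases after each gene start, and 5 of the 7 members have one: Oas1a, Oas1g, Oas3, Oasl1 and Oasl2. The core of the element, GAAA followed by any 2 bases and GAAA again, was searched on both strands. It occurred in 3 of these 5 windows, those of Oas1a, Oas1g and Oas3. Among all 32851 RefSeq promoter windows of the same length, 3.44% hold it. A single window was searched per member, whereas this share counts every window. Oas1a and Oas1g are close copies, so their matches are not separate occurrences, and no test was made. The 30 bases around each match follow in the direction of transcription, with the matched bases in capitals.

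Oas1a: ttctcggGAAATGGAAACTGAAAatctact

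Oas1g: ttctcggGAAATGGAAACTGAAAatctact

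Oas3: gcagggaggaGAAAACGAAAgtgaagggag

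The Oas1a stretch lies at chr5:120907523-120907552 and that of Oas1g at chr5:120887609-120887638, both on the minus strand. In each there are 2 overlapping matches, which begin 20 and 14 bases before the Oas1a start and 18 and 12 bases before the Oas1g start. These stretches are identical between the genes, and the whole windows of Oas1a and Oas1g are identical at 88.8% of 294 aligned bases. The Oas3 stretch, at chr5:120777715-120777744 on the minus strand, holds a single match 75 bases before the gene start. For Oasl1 and Oasl2 no match was found, which says only that these letters are not in these windows. A match is a description of the sequence and was not tested as a binding site.

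The reads behind the family were few. Oas2 had the most, with a mean normalized count of 123. This gene encodes a synthetase with a repeated catalytic unit. The mean normalized count of Oasl2, which encodes a synthetase-like protein with ubiquitin-like domains, was 71.3, and that of Oas3, the longest member, was 56.3. Oasl1, whose protein lacks synthetase activity and restrains translation of Irf7 in mice, had a mean normalized count of 46.6. Among the small Oas1 genes, Oas1a, which encodes an active synthetase, had 41.3, Oas1b 23.0 and Oas1g 17.5. Oas1b is known for flavivirus resistance in mice that carry its full-length form.

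These means are not per length, so they show how well each gene was covered by reads rather than how high it was. All 7 were under the median of the listed genes, and 3 of them, those of Oas2, Oasl2 and Oas3, reached 50. Oas2 had a larger mean than 33.8% of listed genes, the largest share among the members. Oas1g had a larger mean than 1.17% of them and so stands close to the bottom of the table. Of the family's summed mean normalized count of 379, Oas2 contributed 32.5%, Oasl2 18.8%, Oas3 14.8%, Oasl1 12.3%, Oas1a 10.9%, Oas1b 6.08% and Oas1g 4.63%.

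**Figure D1:**
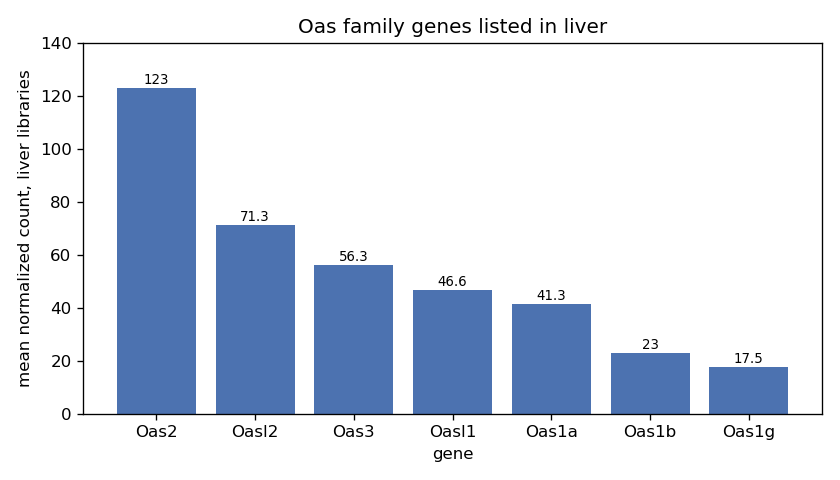
Mean normalized count (y axis, not divided by length) of the 7 listed Oas family genes (x axis) over the compared liver libraries, each bar the authors' mean, with no error bar because single mice are not resolved. Oas2 is highest at 123 and Oas1g lowest at 17.5.

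Since longer transcripts yield more reads, levels were compared between members per kilobase of exons in GENCODE release M21. Oas2 remained highest with a mean normalized count of 27.6 per kilobase. Oas1a, the fifth by mean, was next with 21.9 per kilobase, followed by Oasl1 with 17.9. Oas1b had 11.6 per kilobase and Oasl2 11.2. The lowest were Oas3 with 7.96 and Oas1g with 7.49 per kilobase. The highest and lowest member differed 3.69-fold on this scale, and Oas2 was higher than 32.2% and Oas1g higher than 7.97% of all genes with an exon length. Whether neighbours in this order differ beyond the spread between mice cannot be said without values of single mice.

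The place of Oasl2 depended on the length used. Its exons over all its GENCODE transcripts cover 6374 bases, whereas its longest protein-coding transcript has 3123 bases. Per kilobase of the longest protein-coding transcript, Oasl2 had a mean normalized count of 22.8 and stood second, after Oas2 with 31.1 and just above Oas1a with 21.9 and Oasl1 with 21.3. Oas3 and Oas1g were the lowest with 11.9 and 8.87 per kilobase on that scale too. Per kilobase of coding sequence, Oas2 (54.6) and Oasl2 (46.8) were again the highest, and Oas1g (15.9) the lowest.

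Oas1a and Oas1g are close copies. Their longest coding sequences, both of 1101 bases, were identical at 96.7% of positions. Oas1b, with a coding sequence of 753 bases, was identical to Oas1a at 81.4% and to Oas1g at 82.3% of aligned bases. Under the alignment scores used, 5 of the 21 pairs of members did not align over at least 80% of the shorter coding sequence. Other scores were not tried, so this does not show that those pairs cannot be aligned. The remaining 16 pairs were kept. The 13 of these that did not pair 2 Oas1 genes had an identity of 57.1% to 63.2%. Oasl1 and Oasl2 lay within that range, at 60.0%.

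The close copies bear on how the values were made. The counting mode used by the authors assigns only reads that map to a single place, so a read from a stretch that Oas1a and Oas1g share is not counted for either gene. Of all stretches of 50 bases in the transcripts of Oas1a, 57.6% also occur in a transcript of another gene, and each of these occurs in Oas1g. For Oas1g, 45.7% of such stretches occur in another gene. In Oas1b this share was 2.98%, in Oas3 0.521%, in Oasl2 0.138%, and it was 0 for Oas2 and Oasl1. The mean normalized counts of Oas1a and Oas1g therefore leave out such stretches, while the other members share few or none with transcripts of another gene. Copies elsewhere in the genome can also keep a read from mapping to a single place, and they were not searched for. How many reads were lost in these ways was not tested, since no reads were used. The read length could not be taken from the methods, and stretches of 36 and 75 bases gave 65.7% and 47.6% for Oas1a, and 52.5% and 36.9% for Oas1g. The sequences are those of the reference strain, not of Balb/c.

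**Figure D2:**
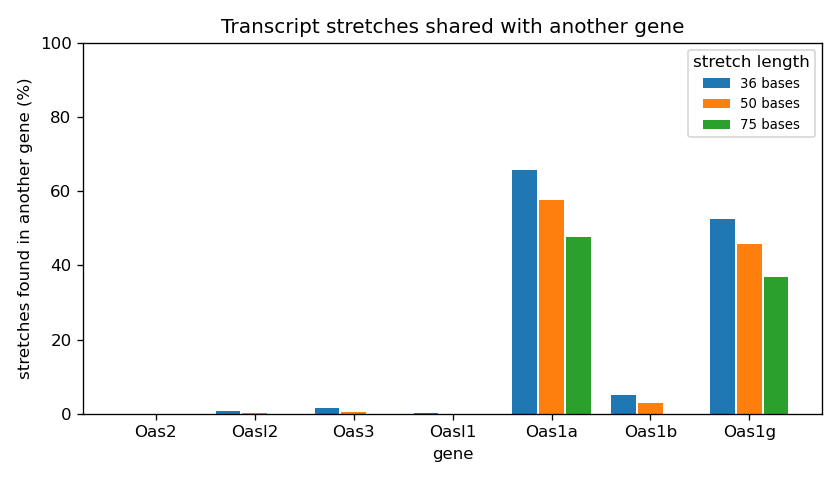
Percent of distinct transcript stretches of 36, 50 or 75 bases (bars, colours) of each Oas family gene (x axis) that also occur in a transcript of another gene (y axis). Oas1a and Oas1g share between 36.9% and 65.7% of their stretches, and every other member at most 5.11%.

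When the mean was divided by the number of 50-base stretches that no other gene holds, Oas1a rose to the first place of the family. Its mean normalized count per 1000 such stretches was 53.0, that of Oas2 was 27.7 and that of Oasl1 17.0. Oas1g had 13.8 per 1000 stretches, Oas1b 11.6, Oasl2 11.0 and Oas3 7.96. The ratio of Oas1a to Oas2 thus turned from 0.792 per kilobase of exons to 1.91. It was 2.35 with stretches of 36 bases and 1.57 with stretches of 75 bases, so Oas1a was higher than Oas2 with each stretch length tried. This division was chosen after the values were seen, and it takes account of copies in GENCODE transcripts alone.

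**Figure D3:**
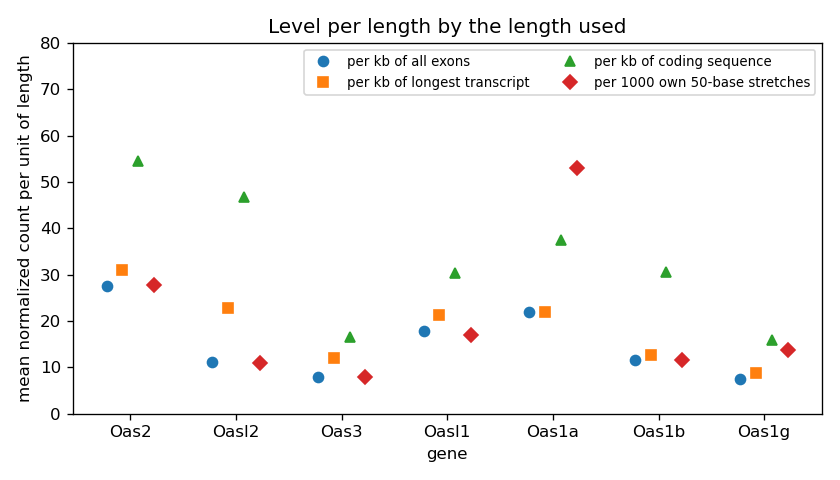
Mean normalized count of each Oas family gene (x axis) divided by 4 measures of length (y axis, markers): exons, longest protein-coding transcript and coding sequence, each per kilobase, and stretches of 50 bases that no other gene holds, per 1000. Oas2 is highest on the first 3 measures and Oas1a on the last, at 53.0 against 27.7.

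Oas1b is annotated in different ways. The deposited table calls it protein-coding, GENCODE release M21 a polymorphic pseudogene, and RefSeq a transcribed pseudogene. Its level of 11.6 per kilobase of exons was above the 7.49 of Oas1g, but on the scale of own 50-base stretches it was below Oas1g, with 11.6 against 13.8. Only Oasl1 had exons that overlap another gene, with 38 bases shared with Gm13822 on the opposite strand. The library kit keeps strand, and the strand setting of the counting is not given in the sources used here.

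In RefSeq the family has 12 genes, all on chromosome 5. Their order is Oasl2, Oasl1, Oas2, Oas3, Oas1e, Oas1c, Oas1b, Oas1f, Oas1h, Oas1g, Oas1a and Oas1d. The 5 genes that are not among the listed ones are all Oas1 genes: Oas1c, Oas1d, Oas1e, Oas1f and Oas1h. Of the 8 Oas1 genes, 3 are listed. The listed Oas1 genes are not a block, since Oas1b is parted from Oas1g by Oas1f and Oas1h. A gene that is not listed was not analysed here, and its level is not known from these values.

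A further 4 genes were searched for, mainly enzymes that turn over oligoadenylates or respond to double-stranded RNA, and all were listed. Pde12, a phosphodiesterase that degrades oligoadenylates, had a mean normalized count of 23.4 per kilobase of exons, which was above every Oas member but Oas2 on this scale. Oas1a, with 21.9 per kilobase, was close below it and had 53.0 per 1000 own 50-base stretches, a scale that was not computed for Pde12. Eif2ak2, the RNA-activated kinase PKR, had 52.0 and Adar, an RNA-editing enzyme, 51.5 per kilobase. Abce1, an ATP-binding cassette protein that recycles ribosomes, was the highest of these with 177 per kilobase. The place of Pde12 depended on the length used. Per kilobase of coding sequence it had 99.2, above Oas2, the highest member on that scale, with 54.6. Per kilobase of the longest protein-coding transcript it had 23.4, below Oas2 with 31.1.

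None of 9 interferon genes searched for, such as Ifnb1 and Ifng, is among the listed genes. The 6 receptor and signalling genes of type I interferon considered here were all listed. The receptor genes Ifnar1 and Ifnar2 had mean normalized counts of 577 and 450, or 97.1 and 135 per kilobase of exons. The kinase genes Jak1 and Tyk2 had 304 and 47.4 per kilobase. Among the parts of the transcription complex, Stat2 had 156 and Irf9 78.4 per kilobase. The lowest of these 6 genes, Tyk2, was thus above the highest Oas member, Oas2 with 27.6 per kilobase. Oas1a had 53.0 per 1000 own 50-base stretches. That scale was computed for the Oas family only, so whether these 6 genes lie above Oas1a on it was not tested.

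The genes for the interferon gamma receptor and its kinase were listed, 3 of 3. The receptor genes Ifngr1 and Ifngr2 had 97.8 and 71.0 and the kinase gene Jak2 54.7 per kilobase of exons. For interferon lambda, Il10rb was listed with 19.2 per kilobase, and Ifnlr1 is not among the listed genes. All 6 interferon regulatory factors searched for were listed, from 19.2 per kilobase for Irf8 to 147 for Irf3. Irf8 was thus below Oas2 and Oas1a on the exon scale. The genes with the highest and lowest undivided mean of this group, Irf2 and Irf5, had 127 and 27.9 per kilobase. Negative regulators were listed for 4 of 5 genes, from 39.1 per kilobase for Socs3, an inhibitor of cytokine signalling, to 67.8 for Ptpn6, with 56.0 for Pias1. Sensors of foreign RNA or DNA and their adaptors were listed for 8 of 9 genes. Mavs, the adaptor of the RNA helicase sensors, had 482 per kilobase and Sting1, the adaptor of DNA sensing, 12.4. The lowest per kilobase of these was Zbp1 with 11.9.

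Interferon-stimulated effector genes outside the Oas family were listed for 18 of 20. Ifitm3, which encodes a membrane protein that blocks virus entry, had 1637 per kilobase of exons, and Ifit3b, of a family that binds viral RNA, had 9.61. These have the highest and lowest undivided mean of the group, and per kilobase Cmpk2, a mitochondrial nucleotide kinase, was lowest with 8.35. The median of these effectors was 27.7 per kilobase, against 11.6 for the 7 Oas members and 51.5 for all 11754 genes with an exon length. The medians moved with the length used. Per kilobase of the longest protein-coding transcript they were 38.0 for the effectors, 21.3 for the Oas members and 77.8 for all genes with such a transcript, and per kilobase of coding sequence 68.7, 30.6 and 168. These are medians over genes with 1 pooled mean each, and no test was made.

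**Figure D4:**
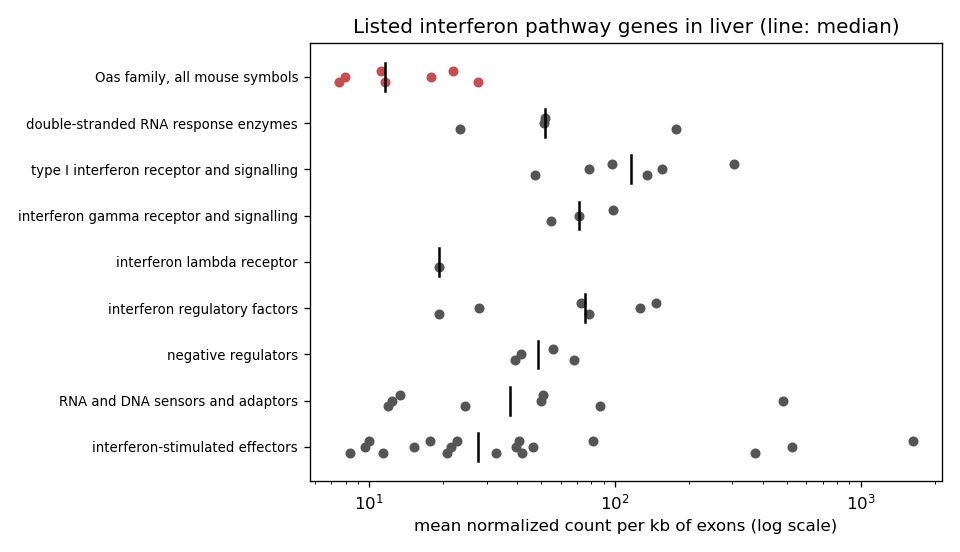
Mean normalized count per kilobase of exons (x axis, log scale) of the listed genes considered here from the interferon pathway lists (rows), with Oas family genes in red, other genes in grey and a line at each list's median. On this scale the Oas members lie between 7.49 and 27.6, and the 6 type I interferon receptor and signalling genes plotted lie above them. The scale takes no account of stretches that Oas1a and Oas1g share.

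Markers of liver cells were checked against the label. All 6 hepatocyte markers were listed, from 2550 per kilobase of exons for Hnf4a to 519843 for Alb, the albumin gene, and even Hnf4a was higher than 98.5% of genes on this scale. Kupffer cell and macrophage markers were listed for 8 of 8 genes, from 55.4 per kilobase for Timd4 to 791 for Clec4f. Sinusoidal endothelial markers (5 of 5) and stellate cell markers (4 of 4) were listed as well, and the genes with the highest and lowest undivided mean of each were Stab2 with 248 and Lyve1 with 41.4, and Reln with 76.8 and Lrat with 36.8 per kilobase. Of the T and NK cell markers 1 of 4 was listed, Cd3e with 4.56 per kilobase, and of the neutrophil markers 2 of 3, S100a8 with 33.1 and S100a9 with 35.9. No marker of B cells (0 of 3), plasmacytoid dendritic cells (0 of 2) or cholangiocytes (0 of 3) is among the listed genes. Of genes typical of other tissues, 0 of 3 for skeletal muscle and 1 of 3 for neurons, Syt1 with a mean normalized count of 251, were listed. In whole liver, a low mean can come from few cells that express a gene or from little RNA in many cells, and these cannot be told apart. Which liver cells the Oas transcripts came from was not tested.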

How the data were processed

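RNA-seq of 6 mouse livers was used. The authors aligned reads with STAR 2.5.3a in its gene-counting mode on an Ensembl annotation, with libraries made by a directional kit after ribosomal RNA depletion, and the build is not given in the sources used here. The deposited signal is the authors' mean of counts normalized by DESeq2 size factors over the compared liver libraries. The same table holds the authors' fold changes, standard errors, Wald statistics, p-values and adjusted p-values, and none of these was used. Every listed gene has an adjusted p-value, and how the listed genes were selected is not given in the sources used here. No test was made.

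Exon and coding lengths came from GENCODE release M21 (11754 genes matched by identifier) and promoters from RefSeq. Coding sequences were aligned globally in Biopython 1.88, with a match of 1, a mismatch of -1, a gap opening of -5 and an extension of -1, and free extension at the ends. Stretches were searched exactly on both strands of all GENCODE transcripts. The percentile, the motif search, the joining of exons and a simpler form of the stretch search were tested on simulated data. The alignment was not tested in this way, nor was the stretch search in the form used. All steps ran under Python 3.11.15, with pandas 2.3.3, numpy 2.4.6, scipy 1.17.1 and matplotlib 3.10.9.

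Members and gene lists were chosen with earlier results of these data known. Named were all members, the genes considered with oligoadenylates and double-stranded RNA, type I interferon signalling, and the highest and lowest mean of every other list. Genes at the ends of a list per kilobase were added after their values were seen. Some genes of these lists are not reported here. Alternatives changed the length, the genes compared, the motif and the stretch length.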

Additional observations from a re-analysis of the deposited data

How the results depend on the processing

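The order of the members per length depended on the length used. The ratio of Oas1a to Oas2, 0.792 per kilobase of exons, was 2.35, 1.91 and 1.57 per stretch of 36, 50 and 75 bases that no other gene holds, because many stretches of Oas1a are shared with Oas1g. The range from the highest to the lowest member, 3.69-fold per kilobase of exons, was 8.06-fold and 6.66-fold with stretches of 36 and 50 bases, and 5.51-fold with 75 bases. With the longest protein-coding transcript and the coding length it was 3.50-fold and 3.43-fold. The motif with a C added at its end was found in 2 members, Oas1a and Oas1g, in place of 3, and in 0.819% of all windows. The motif without the added C was found in 3 members with the 250 bases before the gene start alone. A minimum mean of 50 left 3 members, and Oas2 then had a larger mean than 21.4% of the genes left. Against protein-coding genes alone that share was 32.5%. The filter left 47 of the 57 listed pathway genes. The median identity of coding sequences over the 16 pairs kept was 59.8% of aligned bases and 58.8% of the shorter sequence. Protein identity was not run, since no protein sequences were used here. No paired analysis was possible because the values are means over all livers, and no library could be left out for the same reason. The depth of single libraries is unknown, so no interval is given for any level.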
